A study of Mus musculus with 56 samples.

Results

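The 8 genes for transcriptional regulators of luminal mammary cells, Gata3, Foxa1, Elf5, Cited1, Spdef, Tbx3, Xbp1 and Ehf, were followed across 56 mouse mammary tumors. They were chosen by gene symbol in the platform annotation, and each was read from its probe set with the highest mean over the 56 arrays. All 8 were among the 12508 genes tested, and together they had 19 of the 45101 probe sets. The tumors grew from unirradiated p53-null mammary tissue (p53 is a transcription factor and tumor suppressor activated by DNA damage) in female BALB/c hosts. Host fat pads had been cleared of their own epithelium at 3 weeks of age, and hosts received irradiation or a sham procedure 3 days before transplantation. There were 18 tumors of irradiated Tgfb1 heterozygote hosts, 6 of sham-irradiated heterozygote hosts, 23 of irradiated wild-type hosts and 9 of sham-irradiated wild-type hosts. Tgfb1 encodes the cytokine transforming growth factor beta 1. The transplant carried the p53-null genotype in every group, and the labels give the Tgfb1 genotype for the host only, so stromal and immune cells of the host and cells of the transplant enter the same RNA.

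Luminal cells line the ducts and alveoli of the mammary gland. In the mouse they include hormone-sensing cells, which carry the receptors for estrogen and progesterone, and progenitor and alveolar cells, which make milk in lactation. Gata3, a zinc finger factor, maintains the luminal state. Foxa1, a forkhead factor, opens chromatin for the estrogen receptor, Cited1 is a coactivator of that receptor that does not bind DNA itself, and Tbx3 is a T-box repressor needed to form mammary buds. Elf5, an ETS factor, drives alveolar differentiation, and Ehf is an ETS factor of the same subfamily found in many epithelia. Spdef, another ETS factor, drives secretory differentiation in other epithelia, and Xbp1, a bZIP factor, expands the secretory pathway.

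The values are log2 expression on an Affymetrix array, 1 array per tumor. Array medians were 5.57 to 5.71 in heterozygote hosts and 5.92 to 6.00 in wild-type hosts, so levels were compared only within a host genotype. Whether any host bore more than 1 of the tumors is not labelled, so the p-values speak for the spread among these arrays, whose number limits the precision. In bulk RNA, fewer cells of a type and less RNA per cell cannot be told apart. The 18S ribosomal RNA control was 12.74 ± 0.90 in irradiated and 11.28 ± 1.78 in sham-irradiated wild-type hosts (SD, n = 23 and 9, two-sided exact permutation p = 0.00888, adjusted p = 0.337 over 38 control comparisons), and it lay below 11 on 2 arrays of irradiated and 4 of sham-irradiated wild-type hosts. In heterozygote hosts 2 arrays of irradiated and 1 of sham-irradiated hosts lay below 11. With this control as a covariate, the irradiation estimate in wild-type hosts changed sign for Foxa1 (-0.22), Elf5 (-0.93) and Cited1 (-0.11), none of which passed the test with or without it. Simple keratin scores, the mean log2 value of Krt7, Krt8, Krt18 and Krt19, ran from 7.93 to 13.63 among tumors of wild-type hosts. Among tumors of heterozygote hosts they ran from 9.89 to 13.63. The tumors labelled as mammary thus differed widely in these epithelial markers.

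RefSeq promoter sequence (GRCm38.p6) was at hand for 6 of the 8 genes. Those of Foxa1, Cited1 and Spdef are shown because all 3 pairs of these genes were correlated in heterozygote hosts, and that of Elf5 because its level, with that of Ehf, spread most among tumors of wild-type hosts. Each is the 250 bases before a start site, 5′ to 3′ on the strand of the gene. Capitals mark matches on either strand to a GATA motif (GATAAG), a forkhead motif (TGTTTAC), an ETS motif (CGGAAG) or a T-box motif (GGTGTGA). The motifs do not overlap each other in these windows.
Foxa1, chr12:57546112-57546361, minus strand: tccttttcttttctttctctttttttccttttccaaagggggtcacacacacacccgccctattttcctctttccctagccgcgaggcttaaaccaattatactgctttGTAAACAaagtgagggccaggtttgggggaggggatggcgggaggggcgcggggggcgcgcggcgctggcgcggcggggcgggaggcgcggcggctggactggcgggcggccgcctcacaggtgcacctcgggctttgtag
Cited1, the third start, chrX:102250777-102251026, minus strand: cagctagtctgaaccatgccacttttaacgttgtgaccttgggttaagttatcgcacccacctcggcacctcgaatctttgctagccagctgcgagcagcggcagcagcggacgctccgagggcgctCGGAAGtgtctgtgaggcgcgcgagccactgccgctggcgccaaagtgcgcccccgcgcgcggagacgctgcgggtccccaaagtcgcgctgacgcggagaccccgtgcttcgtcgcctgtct
Spdef, chr17:27728952-27729201, minus strand: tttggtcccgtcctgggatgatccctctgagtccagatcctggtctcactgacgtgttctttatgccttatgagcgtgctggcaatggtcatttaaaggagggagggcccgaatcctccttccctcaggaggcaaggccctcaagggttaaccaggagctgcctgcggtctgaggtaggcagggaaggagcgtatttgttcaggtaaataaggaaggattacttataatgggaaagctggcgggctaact
Elf5, the second start, chr2:103423818-103424067, plus strand: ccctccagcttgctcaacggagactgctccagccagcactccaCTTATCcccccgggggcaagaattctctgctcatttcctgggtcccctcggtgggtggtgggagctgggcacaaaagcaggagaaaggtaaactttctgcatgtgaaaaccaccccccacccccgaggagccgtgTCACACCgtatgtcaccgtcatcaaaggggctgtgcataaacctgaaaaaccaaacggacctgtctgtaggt
The forkhead motif lies 141 to 135 bases before the Foxa1 start, and 3.17% of 32851 RefSeq promoter windows of this length hold it. The ETS motif lies 123 to 118 bases before the third of 3 Cited1 starts, against 13.6% of all windows. The Elf5 window holds the GATA motif 207 to 202 bases and the T-box motif 72 to 66 bases before the start, against 6.55% and 3.33% of all windows. Spdef, Gata3, Xbp1, the other Elf5 start and the other 2 Cited1 starts hold none of these 4 motifs in the window. These matches are descriptions of sequence and not binding sites. Elf5 and Ehf lie on chromosome 2 with 108822 bases between them, an interval that holds 2 RefSeq genes and 0 protein-coding ones.

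No luminal regulator passed the test for host irradiation. In heterozygote hosts limma called 0 of the 8 at a Benjamini-Hochberg adjusted p under 0.05, against 0 of 12508 genes (0%), and 0 of the 8 had an unadjusted p under 0.05, against 5.84% of all genes. In wild-type hosts it again called 0 of the 8, against 0% of all genes, and 1 of the 8 had an unadjusted p under 0.05, against 7.07% of all genes. The values of irradiated and sham-irradiated hosts overlapped for all 8 genes in both host genotypes. The share of all genes with such an overlap was not computed, so the overlap does not set these 8 apart. The median log2 fold change of the 8, irradiated minus sham, was -4e-04 in heterozygote hosts and 0.12 in wild-type hosts, against 0.01 and -0.003 over all genes tested. Positive values belonged to 4 of the 8 in heterozygote hosts, against 51.8% of all genes, and to 6 of the 8 in wild-type hosts, against 49.3%.

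**Figure D1:**
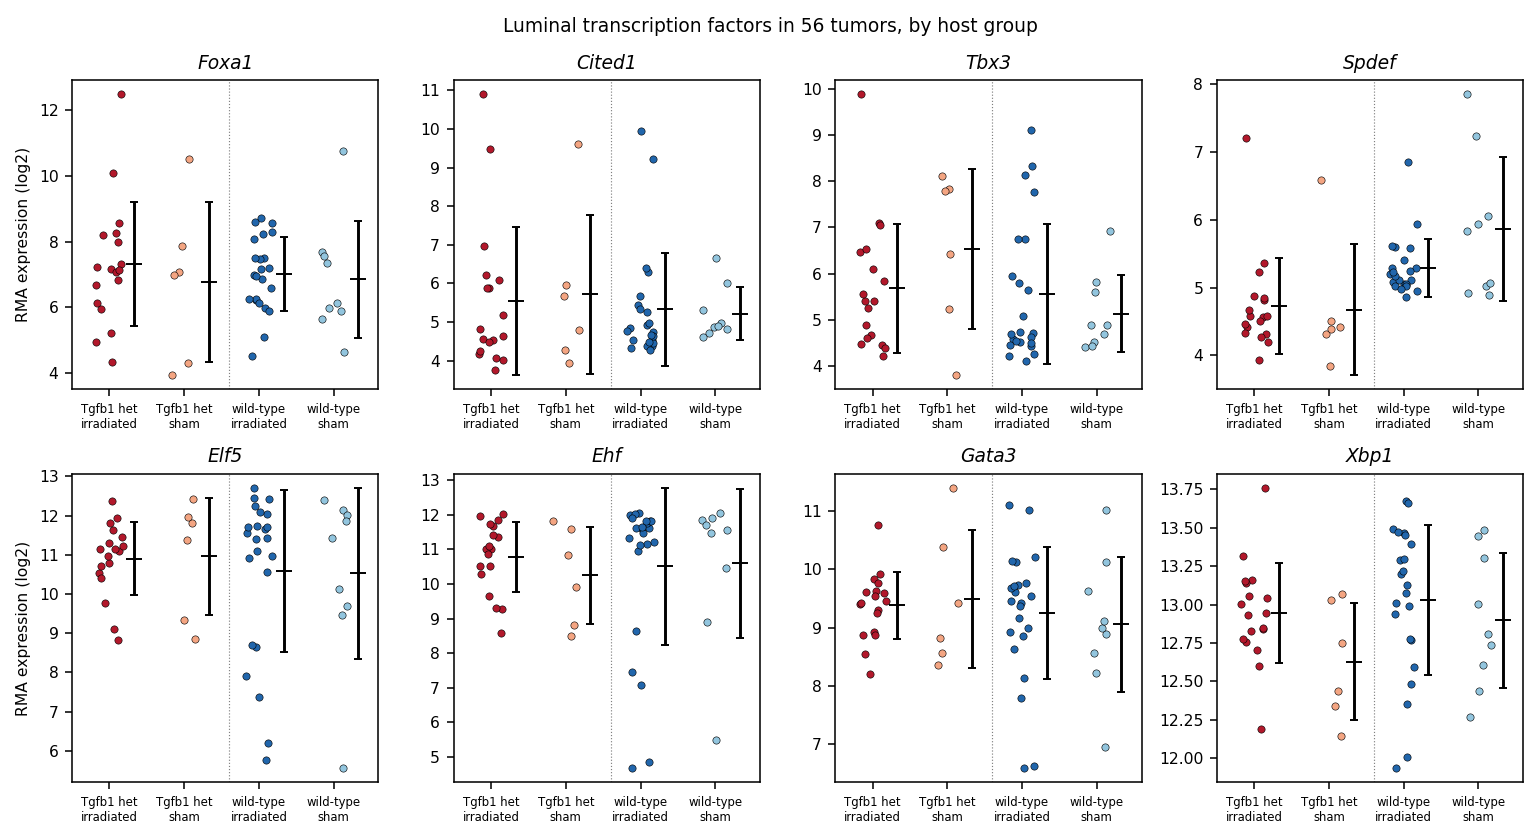
RMA log2 expression of the 8 genes (y axis, log2 units, a scale of its own per gene) in each tumor, by host group on the x axis, with tumors of irradiated hosts left of those of sham-irradiated hosts; bars are mean and SD, and the dotted line parts the host genotypes, between which levels are not compared. Irradiated and sham groups overlap in every panel, and single tumors such as the heterozygote one with Foxa1 at 12.48 stand far above their group.

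Among the regulators tied to hormone-sensing cells, Foxa1 ran from 4.35 through a median of 7.16 to 12.48 in 18 tumors of irradiated heterozygote hosts, against 3.94, 7.03 and 10.50 in 6 of sham-irradiated ones. The mean difference in log2 value was 0.53, with an SE of 0.77 (limma adjusted p = 0.965), and its sign rested on Het_sham replicate 52, the lowest tumor, without which it was -0.03. In wild-type hosts Foxa1 ran from 4.53 through 6.996 to 8.70 in 23 tumors of irradiated hosts, against 4.63, 6.14 and 10.74 in 9 of sham-irradiated ones. That difference was 0.15 (SE 0.64, limma adjusted p = 0.979). In the irradiated group 19 of 23 tumors exceeded the sham median, and WT_sham replicate 17, with the 10.74, stood apart from the other sham tumors.

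Cited1 was above the median of all array values, 5.83, on only 15 of 56 arrays. It ran from 3.76 through 4.73 to 10.90 in irradiated heterozygote hosts, against 3.94, 5.24 and 9.62 in sham-irradiated ones, a log2 fold change of -0.16 (SE 0.74, limma adjusted p = 0.99). In wild-type hosts it ran from 4.28 through 4.77 to 9.95 after irradiation, against 4.62, 4.90 and 6.66 after sham irradiation, a log2 fold change of 0.12 (SE 0.62, limma adjusted p = 0.982). The high end of each range came from single tumors: without Het_sham replicate 38 the heterozygote value was 0.62, and without WT_irradiated replicate 16 the wild-type value was -0.09.

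Tbx3 in heterozygote hosts had the largest irradiation estimate among the 8 genes in both host genotypes, without passing the test. It ran from 4.22 through 5.42 to 9.88 in irradiated heterozygote hosts, against 3.81, 7.11 and 8.11 in sham-irradiated ones, and only 1 of 18 irradiated-host tumors exceeded the sham median. The log2 fold change was -0.85 (SE 0.65, 95% interval -2.15 to 0.46, limma adjusted p = 0.924). Leaving out Het_sham replicate 52 gave -1.39, and leaving out Het_sham replicate 38 gave -0.53. In wild-type hosts Tbx3 ran from 4.12 through 4.71 to 9.11 after irradiation, against 4.42, 4.89 and 6.92 after sham irradiation, a log2 fold change of 0.42 (SE 0.54, limma adjusted p = 0.926). Leaving out 1 tumor in turn gave 0.26 (omitting WT_irradiated replicate 25) to 0.64 (omitting WT_sham replicate 46). The difference between the irradiation effects of heterozygote and wild-type hosts was -1.27 (SE 0.85, limma adjusted p = 0.999).

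Spdef was the member with an unadjusted p under 0.05. In wild-type hosts it ran from 4.86 through 5.18 to 6.86 after irradiation, against 4.89, 5.84 and 7.85 after sham irradiation, and 2 of 23 irradiated-host tumors exceeded the sham median. The log2 fold change was -0.58 (SE 0.27, 95% interval -1.13 to -0.02), with a limma p of 0.0408 and an adjusted p of 0.685. The 2 highest sham tumors, WT_sham replicates 64 and 3, had 7.85 and 7.23. Replicate 64 is also among the arrays with low 18S, and without it the log2 fold change was -0.33 (limma adjusted p = 0.9). In heterozygote hosts Spdef ran from 3.93 through 4.57 to 7.20 after irradiation, against 3.84, 4.40 and 6.59 after sham irradiation, a log2 fold change of 0.06 (SE 0.33, limma adjusted p = 0.99). Spdef exceeded 5.83 on 9 of 56 arrays, so most of its values lie at the dim end of the array. The difference between the host genotypes' irradiation effects was 0.63 (SE 0.43, limma adjusted p = 0.999). Omitting WT_sham replicate 64 gave 0.38 and omitting Het_sham replicate 38 gave 1.01.

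Elf5 and Ehf, the ETS factors of alveolar and other epithelial cells, had wide intervals around their irradiation estimates. Elf5 ran from 8.83 through 11.12 to 12.37 in irradiated heterozygote hosts, against 8.84, 11.59 and 12.42 in sham-irradiated ones, a log2 fold change of -0.06 (95% interval -1.66 to 1.55, limma adjusted p = 0.996). In wild-type hosts it ran from 5.77 through 11.42 to 12.71 after irradiation, against 5.55, 11.42 and 12.41 after sham irradiation, a log2 fold change of 0.05 (95% interval -1.28 to 1.39, limma adjusted p = 0.993). The medians lay close together while the lowest tumors of both wild-type groups stood over 5 log2 units below them. Ehf ran from 8.57 through 11.02 to 12.03 in irradiated heterozygote hosts, against 8.51, 10.39 and 11.82 in sham-irradiated ones, a log2 fold change of 0.53 (95% interval -1.18 to 2.24, limma adjusted p = 0.972). Leaving out 1 tumor in turn gave 0.18 (without Het_sham replicate 15) to 0.84 (without Het_sham replicate 38). In wild-type hosts it ran from 4.67 through 11.57 to 12.06 after irradiation, against 5.49, 11.55 and 12.04 after sham irradiation, a log2 fold change of -0.09 (95% interval -1.52 to 1.34, limma adjusted p = 0.989). Intervals this wide include changes of more than 1 log2 unit in either direction for both genes.

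Gata3 ran from 8.21 through 9.44 to 10.77 in irradiated heterozygote hosts, against 8.37, 9.12 and 11.40 in sham-irradiated ones, a log2 fold change of -0.10 (SE 0.46, limma adjusted p = 0.989). Without Het_sham replicate 52, which had the 11.40, it was 0.28. In wild-type hosts Gata3 ran from 6.59 through 9.46 to 11.10 after irradiation, against 6.96, 8.99 and 11.02 after sham irradiation, a log2 fold change of 0.19 (SE 0.38, limma adjusted p = 0.96). Xbp1, bright on all 56 arrays, had the narrowest interval. It ran from 12.19 through 12.94 to 13.76 in irradiated heterozygote hosts, against 12.14, 12.59 and 13.07 in sham-irradiated ones, and 17 of 18 irradiated-host tumors exceeded the sham median. The log2 fold change was 0.32 (SE 0.20, 95% interval -0.08 to 0.72, limma adjusted p = 0.9). In wild-type hosts Xbp1 ran from 11.93 through 13.13 to 13.67 after irradiation, against 12.27, 12.81 and 13.48 after sham irradiation, a log2 fold change of 0.13 (SE 0.17, limma adjusted p = 0.926), and leaving out 1 tumor gave 0.052 (omitting WT_sham replicate 17) to 0.20 (omitting WT_sham replicate 3). Averaged over the host genotypes it was 0.23 (SE 0.13, limma adjusted p = 0.706). With the other Xbp1 probe sets this average was 0.45, 0.37 and 0.13. Their limma unadjusted p-values, from a fit of all probe sets, were 0.0286, 0.0451 and 0.263. For that average limma called 0 of the 8 members, against 1 of 12508 genes (0.00799%), and 0 of the 8 had an unadjusted p under 0.05, against 7.77% of all genes, while 4 of the 8 were positive, against 50.4% of all genes. For the difference between host genotypes it called 0 of the 8, against 0% of all genes, and 0 of the 8 had an unadjusted p under 0.05, against 4.84% of all genes, and 4 of the 8 were positive, against 51.8%.

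**Figure D2:**
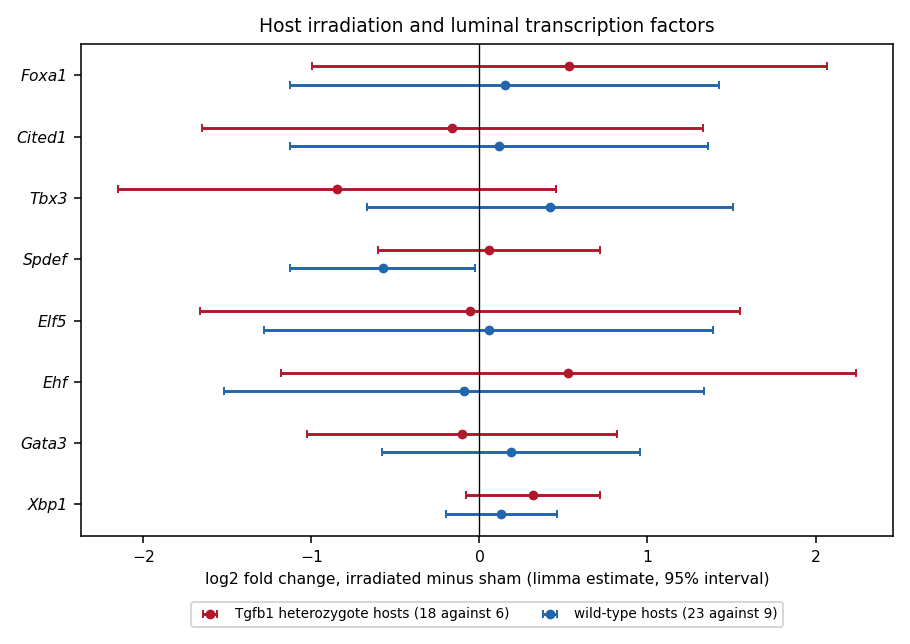
Log2 fold change of each gene, irradiated minus sham (x axis, log2 units), in heterozygote hosts (upper of each pair) and wild-type hosts (lower), as limma estimates with 95% intervals. All intervals cross 0 except that of Spdef in wild-type hosts, -1.13 to -0.02, whose adjusted p was 0.685.

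Genes around these regulators did not pass the test either, with 0 genes called in any of the lists below in any comparison. Of 19 tested regulators of luminal cells outside the 8, 12 had positive and 7 negative log2 fold changes in heterozygote hosts (median 0.17), and 13 and 6 in wild-type hosts (median 0.17). Of these, Stat5a, a mediator of prolactin signals, had 0.81 (SE 0.34, limma adjusted p = 0.786), and Id2, an inhibitor of helix-loop-helix factors, had 0.71 (SE 0.29, limma adjusted p = 0.746), both in heterozygote hosts. Of 16 Xbp1 target genes of the secretory pathway, 12 were positive and 4 negative in heterozygote hosts (median 0.18), and 10 and 6 in wild-type hosts (median 0.04). Among them the chaperone gene Hyou1 had 0.32 in heterozygote hosts (SE 0.13, limma adjusted p = 0.746). Of 5 hormone-sensing genes tested, 2 were positive and 3 negative in heterozygote hosts (median -0.57), and 4 and 1 in wild-type hosts (median 0.17). Among them Pgr, the progesterone receptor, had -0.64 (SE 0.75, limma adjusted p = 0.959) in heterozygote hosts and -0.55 (SE 0.63, limma adjusted p = 0.916) in wild-type hosts, and Esr1, the estrogen receptor, had 0.54 (SE 0.53, limma adjusted p = 0.939) and 0.30 (SE 0.44, limma adjusted p = 0.936). Wnt4, a secreted signal downstream of progesterone, had -0.57 (SE 0.52, limma adjusted p = 0.932) and 0.60 (SE 0.43, limma adjusted p = 0.84), and Greb1, an estrogen-induced gene, had -0.69 (SE 0.60, limma adjusted p = 0.931) in heterozygote hosts. Of 8 milk protein genes, 5 were positive and 3 negative in heterozygote hosts (median 0.55), and 6 and 2 in wild-type hosts (median 0.40). Lalba, which encodes alpha-lactalbumin, had -1.71 in heterozygote hosts (SE 1.11, limma adjusted p = 0.905). Csn2, which encodes beta-casein, had 1.48 in heterozygote hosts (SE 0.87, limma adjusted p = 0.9) and 0.81 in wild-type hosts (SE 0.72, limma adjusted p = 0.887). All 12 epithelial junction genes were tested, of which 11 were positive in heterozygote hosts (median 0.62) and 9 in wild-type hosts (median 0.25). All 7 fibroblast genes were negative in both host genotypes, with medians of -0.49 and -0.21. The fibroblast score, their mean log2 value, did not pass in heterozygote or wild-type hosts (exact permutation p = 0.306 and 0.394, adjusted p = 0.929 for each). Epithelial junction scores averaged 10.21 ± 0.89 in irradiated and 9.63 ± 1.05 in sham-irradiated heterozygote hosts (SD, n = 18 and 6, exact permutation p = 0.225, adjusted p = 0.929). In wild-type hosts they averaged 10.01 ± 1.58 and 9.85 ± 1.57 (SD, n = 23 and 9, exact permutation p = 0.761, adjusted p = 0.929). Of all genes tested, 51.8% were positive in heterozygote and 49.3% in wild-type hosts.

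Tumors of the same group differed widely in several of these genes. Elf5 had an SD of 2.06 log2 units in irradiated and 2.17 in sham-irradiated wild-type hosts, with 99.6% of genes below it in each group, and Ehf had 2.28 and 2.16, with 99.8% and 99.6% of genes below it. In heterozygote hosts Foxa1 and Cited1 spread most, with SDs of 1.89 and 1.92 after irradiation and 2.42 and 2.07 after sham irradiation, with 99.2% to 99.7% of genes below them. Xbp1 was close to the middle of all genes, with SDs of 0.33 and 0.38 in irradiated and sham-irradiated heterozygote hosts and 0.49 and 0.44 in irradiated and sham-irradiated wild-type hosts.

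Single tumors carried much of this spread. Of the heterozygote tumors, 3 had Cited1 above 9 together with high Foxa1 and Tbx3. Het_irradiated replicate 32 had Cited1 at 10.90, Foxa1 at 12.48, Tbx3 at 9.88 and Spdef at 7.20, the highest value of its host genotype for each. Het_sham replicate 38 had Cited1 at 9.62, Foxa1 at 10.50, Tbx3 at 8.11 and Spdef at 6.59, and Het_irradiated replicate 56 had Cited1 at 9.47, Foxa1 at 10.09 and Tbx3 at 7.09. Their hormone-sensing scores, the mean log2 value of Esr1, Pgr, Wnt4, Tnfsf11 and Greb1, were 8.61, 7.45 and 7.87. Their basal and myoepithelial scores were 8.42, 8.72 and 11.13, the last being the highest of the host genotype. Both irradiation groups are among these tumors. A hormone-sensing score of 7.62 was also seen in Het_sham replicate 19, with Cited1 at 5.67, Foxa1 at 7.86 and Tbx3 at 7.84. Het_sham replicate 52 had low Foxa1, Cited1 and Tbx3, at 3.94, 3.94 and 3.81. Its Gata3 at 11.40 and Elf5 at 12.42 were the highest of its host genotype. Gata3 came next in Het_irradiated replicate 32, Het_sham replicate 38 and Het_irradiated replicate 56, at 10.77, 10.38 and 9.93.

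In wild-type hosts, WT_irradiated replicates 59 and 11 and WT_sham replicate 60 had Elf5 at 5.77, 6.19 and 5.55 and Ehf at 4.67, 4.86 and 5.49. Their epithelial junction scores were 5.83, 6.11 and 6.16, the lowest of the host genotype, and their simple keratin scores were 7.93, 8.74 and 9.60. Replicates 59 and 60 are among the arrays with low 18S, at 9.46 and 9.44, and replicate 11 is not, at 13.08. WT_irradiated replicates 16 and 12 had Cited1 at 9.95 and 9.22, hormone-sensing scores of 7.05 and 5.92, and basal and myoepithelial scores of 10.81 and 11.03. The 7.05 and the 11.03 were the highest of the host genotype for each score. WT_sham replicate 17 had the highest Foxa1 of its host genotype, 10.74, with Gata3 at 6.96, the third lowest. What part cell makeup has in these values was not tested.

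**Figure D3:**
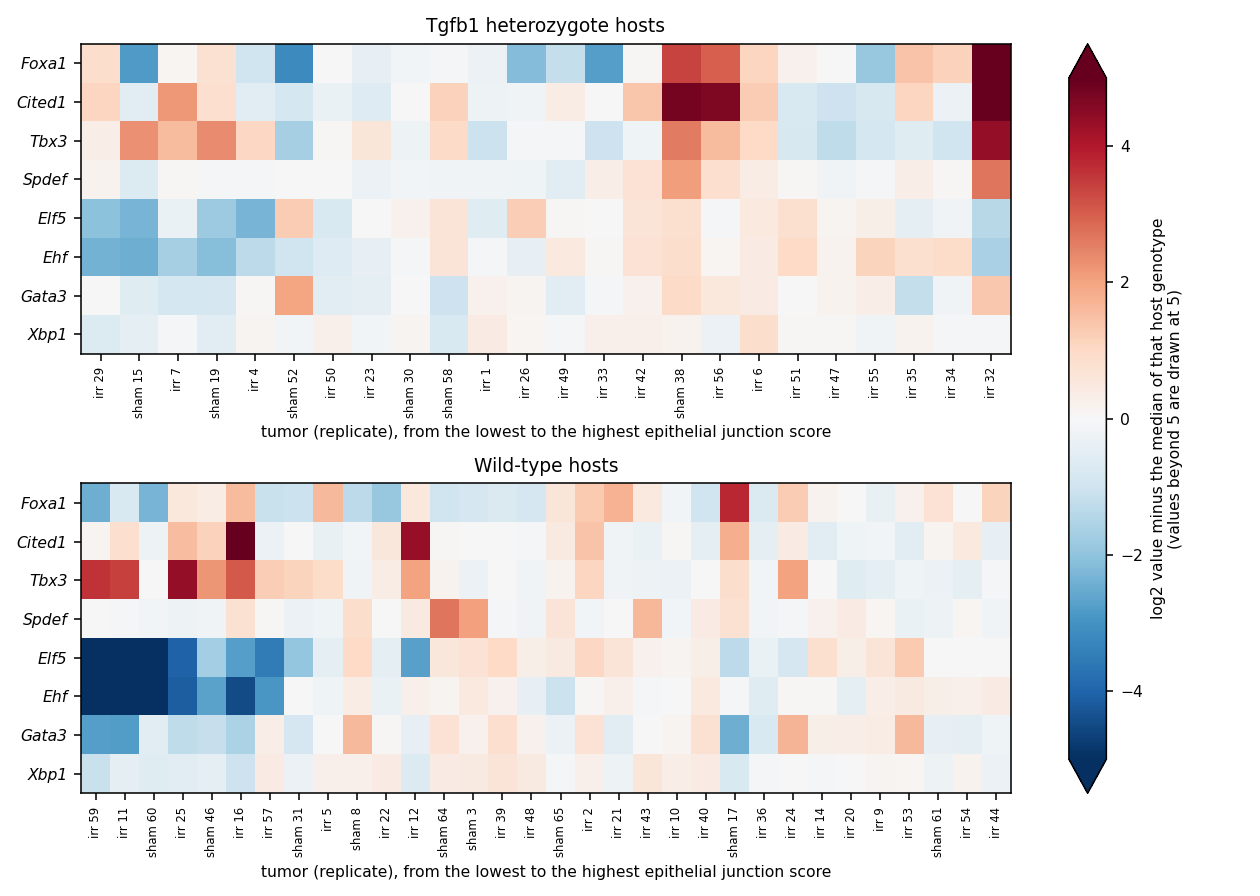
Each column is a tumor, ordered from the lowest to the highest epithelial junction score within heterozygote hosts (top) and wild-type hosts (bottom); colour gives each gene's log2 value minus its median in that host genotype, and values beyond 5 are drawn at 5. Elf5 and Ehf are lowest in the wild-type tumors at the left, and Foxa1, Cited1 and Tbx3 are high together in heterozygote tumors irradiated 32, irradiated 56 and sham 38.

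Over the tumors of a host genotype, some pairs of regulators were correlated. In heterozygote hosts Foxa1, Cited1 and Spdef passed in all 3 of their pairs, and Tbx3 passed with Cited1 but not with Foxa1 (rho 0.419, adjusted p = 0.122) or Spdef. Spdef exceeded 5.83, the median of all array values, in 1 of 18 irradiated and 1 of 6 sham-irradiated heterozygote hosts' tumors. Cited1 did so in 7 and 2, so the ranks of Spdef and Cited1 are mostly ranks of dim values. In wild-type hosts Gata3, Elf5, Ehf and Xbp1 passed in each of their pairs except Xbp1 with Ehf (rho 0.370, adjusted p = 0.109). Elf5 with Ehf and Cited1 with Tbx3 passed in both. Of 28 pairs in each host genotype, 5 passed in heterozygote hosts (n = 24), all positive, and 9 in wild-type hosts (n = 32), 6 positive and 3 negative, by Spearman's rho with 100000 permutations and Benjamini-Hochberg adjustment over all 56. By Pearson's r, 9 and 12 passed. The share of all gene pairs that would pass was not computed. The smallest p these permutations can give is 1e-05. Whether a pair differed between the host genotypes was not tested. In heterozygote hosts, Foxa1 and Spdef had rho = 0.720 (permutation p = 0.00011, adjusted p = 0.00154) and r = 0.788 (permutation p = 1e-05, adjusted p = 0.000112), and r was 0.549 without the 2 tumors farthest from the median of Foxa1. In all, 7 of the genes tested (0.056%) had a rho with Foxa1 beyond that of Spdef. Other pairs were less particular: 2.48% had a rho with Elf5 beyond that of Ehf, and 2.6% had a rho with Tbx3 beyond that of Cited1. Foxa1 and Cited1 had rho = 0.646 (permutation p = 0.00075, adjusted p = 0.00525) and r = 0.826 (permutation p = 1e-05, adjusted p = 0.000112), with r = 0.651 without the 2 farthest tumors. Cited1 and Spdef had rho = 0.610 (permutation p = 0.00194, adjusted p = 0.00988) and r = 0.866 (permutation p = 1e-05, adjusted p = 0.000112), with r = 0.647 without the 2 farthest. Cited1 and Tbx3 had rho = 0.611 (permutation p = 0.00178, adjusted p = 0.00988) and r = 0.742 (permutation p = 0.00012, adjusted p = 0.00056), with r = 0.500 without the 2 farthest. For Foxa1 with Cited1, Cited1 with Spdef and Cited1 with Tbx3, rho without the 2 farthest was 0.540, 0.494 and 0.495. These omissions keep Het_irradiated replicate 56, with Cited1 at 9.47 and the next tumor, Het_irradiated replicate 7, at 6.97, so r still leans on that tumor. Elf5 and Ehf had rho = 0.578 (permutation p = 0.00357, adjusted p = 0.0154) and r = 0.725 (permutation p = 0.00012, adjusted p = 0.00056), with r = 0.654 without the 2 farthest. For Spdef and Tbx3 the relation rested on a pair of tumors: r = 0.564 (permutation p = 0.00701, adjusted p = 0.0207) became -0.067 without the 2 farthest, and rho was 0.203 (permutation p = 0.344, adjusted p = 0.521).

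In wild-type hosts, Gata3 and Xbp1 had rho = 0.730 (permutation p = 1e-05, adjusted p = 0.00056) and r = 0.739 (permutation p = 1e-05, adjusted p = 0.000112), with r = 0.693 without the 2 tumors farthest from the median of Gata3. Gata3 and Elf5 had rho = 0.703 (permutation p = 3e-05, adjusted p = 0.00056) and r = 0.683 (permutation p = 2e-05, adjusted p = 0.000187), with r = 0.512 without the 2 farthest. Elf5 and Ehf had rho = 0.677 (permutation p = 2e-05, adjusted p = 0.00056) and r = 0.897 (permutation p = 1e-05, adjusted p = 0.000112), with r = 0.831 without the 2 farthest. Elf5 and Xbp1 had rho = 0.590, Gata3 and Ehf 0.577, and Cited1 and Tbx3 0.510, with adjusted p-values of 0.00495, 0.00525 and 0.0149. Tbx3 ran opposite to 3 other members: its rho was -0.619 with Elf5, -0.548 with Ehf and -0.480 with Xbp1 (adjusted p = 0.00246, 0.00946 and 0.0228). Against all genes tested, 1.97% had a rho with Elf5 beyond that of Ehf, and 6.54% had a rho with Tbx3 beyond that of Xbp1.

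**Figure D4:**
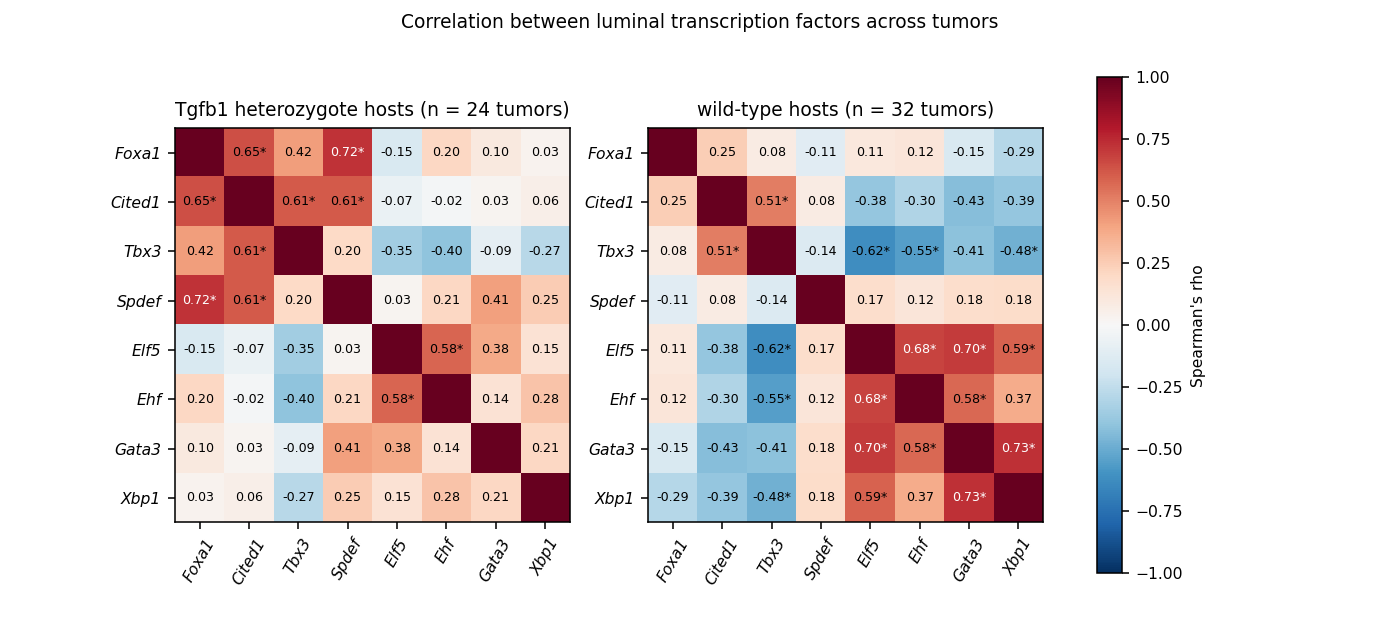
Spearman's rho between the 8 genes (rows and columns) across 24 tumors of heterozygote hosts (left) and 32 of wild-type hosts (right); red is positive, blue negative, and a star marks an adjusted p under 0.05. In heterozygote hosts the pairs of Foxa1, Cited1 and Spdef are red and starred at the upper left. Tbx3 lies between Cited1 and Spdef in that block and is starred only with Cited1. In wild-type hosts Gata3, Elf5, Ehf and Xbp1 form the red block at the lower right, starred except for Ehf with Xbp1. There Tbx3 is blue against Elf5, Ehf and Xbp1.

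Some members also followed the epithelial junction score, the mean log2 value of its 12 genes. Ehf had rho = 0.750 with the epithelial junction score in heterozygote hosts and 0.629 in wild-type hosts (adjusted p = 0.00198 and 0.00329 over 272 pairs of a member and a list). Elf5 had 0.324 and 0.556 (adjusted p = 0.251 and 0.0102), and Tbx3 had -0.256 and -0.689 (adjusted p = 0.378 and 0.000544). With that score held constant, 13 pairs passed, against 14 without it. Elf5 and Tbx3 (partial rho -0.391), Cited1 and Tbx3 (0.395), and Tbx3 and Ehf (-0.203) then no longer passed in wild-type hosts, while Gata3 and Xbp1 kept a partial rho of 0.716 (adjusted p = 0.00112), and Foxa1 and Tbx3 had 0.603 (adjusted p = 0.0132) in heterozygote and 0.496 (adjusted p = 0.0225) in wild-type hosts. Without the arrays of low 18S, 13 pairs passed. Elf5 and Ehf in heterozygote hosts (rho 0.394) and Tbx3 and Ehf in wild-type hosts (rho -0.463) then missed the threshold.

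**Figure D5:**
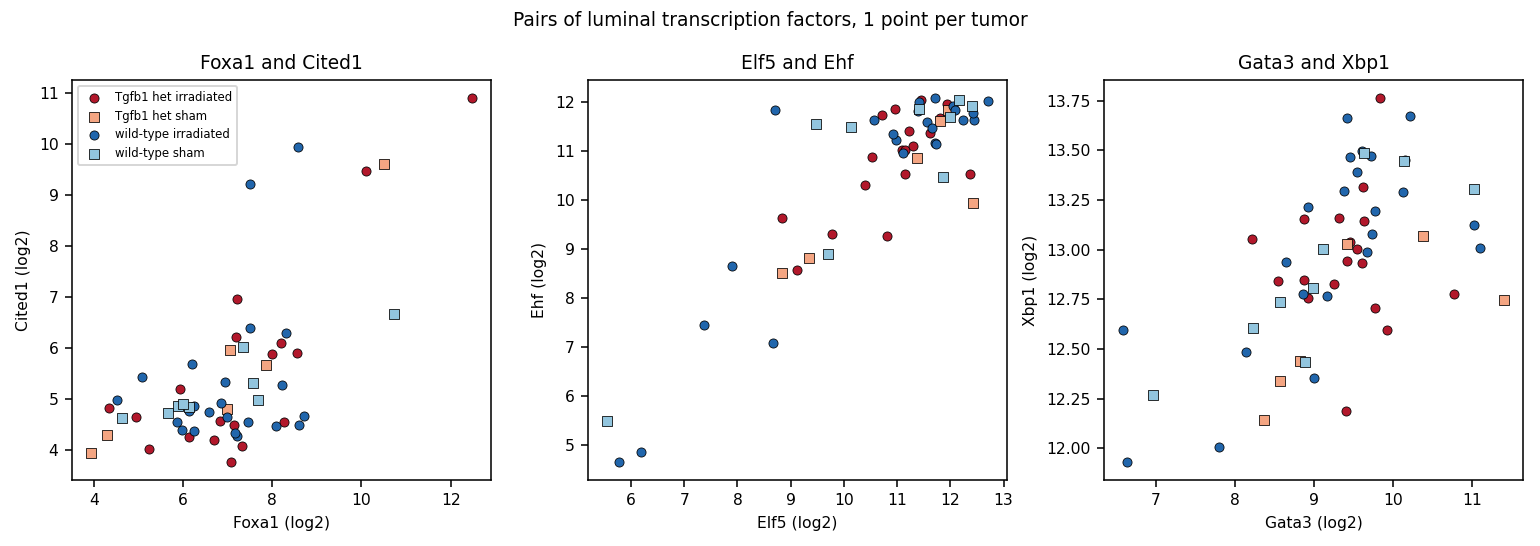
Log2 expression of Foxa1 against Cited1, Elf5 against Ehf, and Gata3 against Xbp1 (both axes in log2 units), with 1 point per tumor and colour and shape giving the host group. Tumors of irradiated and sham-irradiated hosts mix along each relation. Within wild-type hosts the same 3 tumors have the lowest Elf5 and the lowest Ehf values.

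Gene lists of other cell types moved with the members. Of 136 pairs of a member and a list in each host genotype, 14 passed in heterozygote and 53 in wild-type hosts by rho. The share that would pass among all genes was not computed. Tbx3 followed the hormone-sensing score, with rho = 0.827 (adjusted p = 0.000544) and r = 0.852 (adjusted p = 0.00017) in heterozygote hosts and rho = 0.708 (adjusted p = 0.000544) and r = 0.745 (adjusted p = 0.00017) in wild-type hosts. Without the 2 farthest tumors r was 0.756 and 0.790. The highest Tbx3 values of wild-type hosts were 9.11, 8.33 and 8.14, in WT_irradiated replicates 25, 59 and 11. Epithelial junction scores of these tumors were 6.76, 5.83 and 6.11, and their hormone-sensing scores were 6.29, 6.35 and 7.01. WT_sham replicate 60, with a junction score of 6.16, had Tbx3 at 4.69. Tbx3 also followed the fibroblast score, with rho = 0.753 (adjusted p = 0.00136) and 0.656 (adjusted p = 0.00198), and the score of basal and mesenchymal regulators, with rho = 0.583 (adjusted p = 0.0245) and 0.712 (adjusted p = 0.000907), in heterozygote and wild-type hosts. Cited1 followed the hormone-sensing score too, with rho = 0.684 (adjusted p = 0.00383) and 0.569 (adjusted p = 0.00764), and with the basal and myoepithelial score it had rho = 0.529 (adjusted p = 0.0411) in heterozygote and 0.313 (adjusted p = 0.188) in wild-type hosts. Foxa1 was not called by rho with the hormone-sensing score, at 0.502 (adjusted p = 0.0563) in heterozygote and 0.212 (adjusted p = 0.399) in wild-type hosts. By r it passed in heterozygote hosts only (r = 0.663, adjusted p = 0.00299). With the basal and myoepithelial score Foxa1 had rho = 0.428 (adjusted p = 0.108) in heterozygote and 0.463 (adjusted p = 0.0401) in wild-type hosts. Elf5 followed the milk protein score in wild-type hosts, with rho = 0.760 (adjusted p = 0.000544) and r = 0.854 (adjusted p = 0.00017), and so did Gata3, with rho = 0.642 (adjusted p = 0.00204). In heterozygote hosts neither was called with that score, at rho = 0.257 (adjusted p = 0.378) for Elf5 and -0.0165 (adjusted p = 0.953) for Gata3. Gata3 ran opposite to the hormone-sensing score in wild-type hosts, with rho = -0.481 (adjusted p = 0.033) and r = -0.611 (adjusted p = 0.00162). In heterozygote hosts that rho was 0.084 (adjusted p = 0.792). Xbp1 was not called with the score of its 16 secretory target genes in either host genotype. It followed the score of secretory genes associated with Foxa1 and Spdef, with rho = 0.699 (adjusted p = 0.00287) in heterozygote and 0.610 (adjusted p = 0.00337) in wild-type hosts. Foxa1 and Spdef themselves were not called with that score. Foxa1 had rho = -0.170 (adjusted p = 0.564) and 0.087 (adjusted p = 0.748), and Spdef 0.023 (adjusted p = 0.94) and 0.392 (adjusted p = 0.0919), in heterozygote and wild-type hosts. Without the arrays of low 18S, 41 pairs of a member and a list passed in all, against 67 with them. Lists share tumors and, in part, cell types, so these pairs are not independent.

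Among all genes tested, the pattern most like each member was taken as the highest mean over the host genotypes of Spearman's rho, over 24 and 32 tumors. Nearest to Tbx3 was Snai2, a repressor of epithelial genes, with rho = 0.843 in heterozygote and 0.850 in wild-type hosts, followed by Cachd1 and Lrp1. Nearest to Xbp1 was 4931406C07Rik with 0.812 and 0.835, then Aldoc and Timd2. Nearest to Ehf was Slc5a8 with 0.768 and 0.844, then Tmem176b and Vamp8, and nearest to Elf5 was Acss1 with 0.812 and 0.795, then BC016548 and Gstt3. Gata3 was nearest to Trps1 with 0.692 and 0.791, then Sdr42e1 and Il17re. Cited1 was nearest to Lifr, a cytokine receptor, with 0.789 and 0.691, then to Fgfr2 and Gipc2. Foxa1 was nearest to Cxcl15 with 0.835 and 0.429, then to Krt5, a keratin of basal cells, with 0.644 and 0.617, and Rhbdl3. Spdef had the lowest best match of the 8, Ctdspl with 0.491 and 0.614, then Cldn10 and Hdac11. These values are descriptions, chosen as the highest of all genes.

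Where a gene had further probe sets above the filter, they followed the brightest probe set. For Elf5 the other probe set had rho = 0.932 in heterozygote and 0.972 in wild-type hosts, for Tbx3 0.969 and 0.906, and for Ehf both others had 0.910 or more. Of 3 other Xbp1 probe sets, 2 had 0.937 or more and the third had 0.654 and 0.834. For irradiation in heterozygote hosts these gave log2 fold changes of 0.57, 0.49 and 0.13, against 0.32 with the brightest. Gata3, Foxa1, Cited1 and Spdef had 1 probe set each. In all, 4 dim probe sets, 3 of Tbx3 and 1 of Ehf, exceeded 5.83 on 1 array at most and did not pass the filter.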

How the data were processed

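Tumor RNA, 100 ng of total RNA for each of 56 Affymetrix 3' arrays per the labels' protocols, gave 1 array per tumor. The authors deposited log2 expression values summarised by RMA, per the submitters' processing notes, which name no version. Because array medians of the host genotypes did not overlap, each genotype was treated as its own normalization. Groups came from the sample titles; no batch, date or dose of radiation is labelled. Signal above background was not analysed here.

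Probe sets with 1 gene symbol (34958 of 45101) were used, and those with several (932) or none (9211) were left out. The filter required a value over 5.83, the median of the whole table, on 6 or more arrays, and a gene was read from its brightest probe set. With limma 3.58.1 in R 4.3.3, 4 group means were fitted to 12508 genes (lmFit, eBayes), with Benjamini-Hochberg adjustment over all of them and a threshold of 0.05. Contrasts were irradiated minus sham-irradiated hosts in each host genotype, their difference (heterozygote minus wild type) and their mean. Correlations used 100000 two-sided permutations within a host genotype (Python 3.11.15, numpy 2.4.6). Control values were compared by exact permutation tests, two-sided as 2 times the smaller tail, the convention of scipy 1.17.1. The methods were tested on simulated data. Plots were drawn with matplotlib 3.10.9.

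Named genes were the 8 members, the 3 genes most similar in pattern to each, and up to 4 genes of each list with the lowest p in the contrast described, given here in part. Members and lists were chosen with earlier results of these data known; motifs and the promoters shown were chosen after the values were seen. Alternatives changed the filter, the probe set, the normalization (quantile), the eBayes options, the array weights and the arrays used, or added the 18S control, the 3' minus 5' difference of Actb and Gapdh, or the epithelial junction score as a covariate. Sequences and positions came from RefSeq (GRCm38.p6).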

Additional observations from a re-analysis of the deposited data

Results flagged for a closer look

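Of the values of the 8 genes in groups of 4 to 10 tumors, 5 lay farther from the rest of their group than Dixon's 95% limit. Chance gives about 1 in 20 such groups a value this far out. Het_sham replicate 38 had Cited1 at 9.62, with the next of the 6 tumors at 5.97, and Spdef at 6.59, with the next at 4.50. WT_sham replicate 60 had Elf5 at 5.55, with the next of the 9 tumors at 9.47, and Ehf at 5.49, with the next at 8.89. This tumor also had an 18S control of 9.44 and an epithelial junction score of 6.16. WT_sham replicate 17 had Foxa1 at 10.74, with the next of the 9 at 7.68.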

How the results depend on the processing

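The count of luminal regulators called stayed at 0 in all 266 alternative counts, 1 for each comparison in each alternative fit, leave-one-out included. The lowest adjusted p among the member values given here was 0.393 (Xbp1 averaged over host genotypes, with array weights). Signs were less stable. Over all 8 members and 4 comparisons, 52 of 432 alternative values had the opposite sign to the main value, 28 of 224 for irradiation within a host genotype and 24 of 208 for the difference and the average. For the last 2 the text gives values only for the Tbx3 and Spdef differences and the Xbp1 average, a choice made after these sign changes were seen. None of the 24 is a change of these 3 values, and they include the Tbx3 average, which the text does not give. In wild-type hosts, the sign turned with array weights for Cited1 (-0.17), Tbx3 (-0.091) and Ehf (0.25), with the 18S control as covariate for Foxa1 (-0.22), Elf5 (-0.93) and Cited1 (-0.11), with the epithelial junction score as covariate for Elf5 (-0.12), without the arrays of low 18S for Cited1 (-0.036) and Tbx3 (-0.054), and with the other Ehf probe sets (0.014, 0.023 and 0.057). In heterozygote hosts it turned with array weights for Foxa1 (-0.64) and Spdef (-0.31), with the epithelial junction score for Spdef (-0.020) and Ehf (-0.21), and with another probe set for Elf5 (0.15) and Tbx3 (0.006). Leaving out 1 tumor in turn gave, in wild-type hosts, -0.075 (without WT_sham replicate 17) to 0.43 for Gata3, -0.13 (without WT_sham replicate 60) to 0.64 for Foxa1, -0.57 (without WT_sham replicate 60) to 0.29 for Elf5, -0.093 (without WT_irradiated replicate 16) to 0.30 for Cited1 and -0.73 to 0.18 (without WT_irradiated replicate 59) for Ehf. In heterozygote hosts it gave -0.33 to 0.28 (without Het_sham replicate 52) for Gata3, -0.032 (without Het_sham replicate 52) to 1.28 for Foxa1, -0.48 to 0.24 (without Het_sham replicate 52) for Elf5, -0.52 to 0.62 (without Het_sham replicate 38) for Cited1 and -0.11 (without Het_sham replicate 15) to 0.44 for Spdef. The cause was not tested. For irradiation in wild-type hosts 1 of the 34958 probe sets was called when all were fitted, against 0 genes. For the average 18 probe sets were called when all were fitted. Genes called for it were 19 with array weights, 0 with the 18S control and 0 with the 3' minus 5' difference as covariate, and 0 to 2 with a tumor left out, against 1. Of 56 alternative tests of the 14 pairs called, 51 kept their side of the threshold and 5 did not: with the epithelial junction score held constant, Elf5 and Tbx3 (-0.391), Cited1 and Tbx3 (0.395) and Tbx3 and Ehf (-0.203) in wild-type hosts, and without arrays of low 18S, Elf5 and Ehf in heterozygote hosts (0.394) and Tbx3 and Ehf in wild-type hosts (-0.463). All 14 kept their sign without the 2 farthest tumors, with no test of those values. Pairs of a member and a list that passed were 41 without arrays of low 18S, against 67, with fewer tumors in the test. Cited1, Spdef and Tbx3 lay below the median of all values on most arrays, did not pass the stricter filter and were not tested under it. No paired analysis was possible because replicate numbers do not recur across groups.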
